A study of Mus musculus with 32 samples.

Results

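Ribosome-bound RNA of lumbar spinal cord astrocytes was compared between mice 3 weeks after a fracture and uninjured mice. The comparison uses 12 of the 32 libraries of the series, chosen by their titles alone: 6 Trap libraries at 3 weeks and 6 Trap libraries without injury, each group holding 3 from females and 3 from males. All animals carried Aldh1l1-CreER, an inducible recombinase under an astrocyte promoter, with Rpl22-HA, an epitope-tagged protein of the large ribosomal subunit. The genotype is spelled Aldhl1l-CreER;Rpl22-HA in the sample labels, the injured mice are labelled Fracture and the controls No fracture. The labels give no age, strain background or tamoxifen schedule, nor do they tie libraries to single animals. The p-values therefore rest on library-to-library spread, which may be technical. The 8 Input libraries, from the homogenate before the pull-down, and the 12 Trap libraries at 5 and 7 weeks are used only to place the result at 3 weeks.

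Astrocytes tile the grey and white matter of the cord. They are coupled to each other through gap junctions, take up glutamate and potassium released by neurons, hold glycogen, and reach blood vessels with endfeet rich in water channels. In the pull-down used here, an antibody against the HA tag collects ribosomes of the cells that expressed the recombinase together with the mRNA they carry, so the measured quantity is mRNA on tagged ribosomes. The fracture is the study's model of complex regional pain syndrome, a limb pain that outlasts an injury, and the series asks how spinal astrocytes, their metabolism above all, differ in its acute and chronic phases.

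The labelled cell type held up against its markers. The 24 astrocyte markers had a median log2 difference of 3.30 between Trap and Input, against -3.85 for 20 neuron markers, -3.86 for 17 microglia markers, -2.40 for 18 oligodendrocyte markers and -2.81 for 12 endothelial markers. The pull-down was not free of other RNA: markers of red blood cells (7 tested, 2.34) and neutrophils (7 tested of 11, 2.51) were higher in Trap than in Input. Ependymal (8 tested, 0.51) and Schwann cell markers (8 tested, 0.24) were also above 0. Markers of oligodendrocyte precursors (10 tested, -0.16) and of mural cells and fibroblasts (13 tested, -0.82) were lowered little. Total estimated counts of the 12 libraries ran from 17124034 to 23189228. Female 3 weeks replicate 3 stood apart. Its summed astrocyte markers reached 64167 CPM (counts per a fixed number of reads, scaled between libraries) against 78569 to 86690 in the other 11, its summed neuron markers 1718 CPM against 859 to 1325, and mitochondrially encoded genes took 0.489% of its counts against 0.130% to 0.219%.

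A gene is named called where its adjusted p in edgeR's quasi-likelihood test was under 0.05. Over 15380 genes 17 were called (0.111%), 5 higher (0.0325%) and 12 lower (0.078%) at 3 weeks. The median log2 difference of all genes was 0.00 and 50.8% were positive. The called genes fall into a few roles: the connexin Gja1, the cytoskeletal genes Rflnb, Svil and Tns3, the water channel Aqp6, genes of matrix and growth factor signalling (Smoc1, Fgfrl1, Bcam, Amhr2), enzymes (Mat2a, Galnt18, St14), and Nnat, Rassf10, Ky and the noncoding 2900052N01Rik. The remaining one has no symbol (ENSMUSG00000104463.2) and the same counts as Mat2a in all libraries, so reads of this pair cannot be assigned to either. In bulk RNA fewer cells of a kind and less RNA per cell cannot be told apart, and this holds for each difference that follows.

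**Figure D1:**
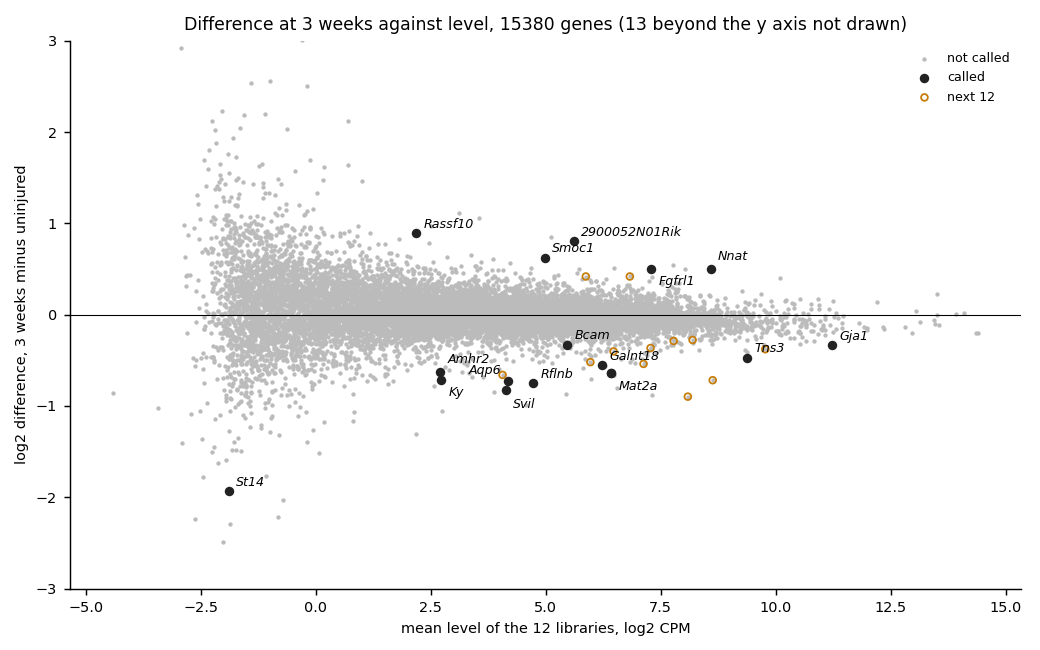
Log2 difference between 3 weeks and uninjured (y axis) against the mean level of the 12 libraries in log2 CPM (x axis), 1 point per gene. Black points are called genes, open circles the 12 genes next in order of p; called genes span the levels from St14, under 1 CPM, to Gja1, with a median of 2662 CPM in the controls, and 13 genes lie beyond the y axis.

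The sequences before the start sites of 6 genes are shown: Rflnb, Nnat and Aqp6 because their calls held in each fit that left out 1 library, Fgfrl1 and Gja1 as further called genes, and Gjb6, not called, as the partner connexin of Gja1. Each is the 250 bases before the RefSeq start on GRCm38.p6, read 5′ to 3′ on the gene's strand, and capitals mark the motif matches described afterwards.
Rflnb, chr11:76027783-76028032, minus strand: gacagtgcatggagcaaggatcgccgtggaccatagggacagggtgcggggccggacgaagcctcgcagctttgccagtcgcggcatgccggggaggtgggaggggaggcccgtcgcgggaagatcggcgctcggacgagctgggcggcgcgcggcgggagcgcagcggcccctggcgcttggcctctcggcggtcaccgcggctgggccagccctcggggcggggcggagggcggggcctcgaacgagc
Nnat, chr2:157559828-157560077, plus strand: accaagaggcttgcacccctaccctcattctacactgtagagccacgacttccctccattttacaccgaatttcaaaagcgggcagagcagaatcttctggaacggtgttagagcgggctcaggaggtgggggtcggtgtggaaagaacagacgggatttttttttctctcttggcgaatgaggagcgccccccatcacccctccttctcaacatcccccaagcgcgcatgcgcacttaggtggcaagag
Aqp6, chr15:99600950-99601199, plus strand: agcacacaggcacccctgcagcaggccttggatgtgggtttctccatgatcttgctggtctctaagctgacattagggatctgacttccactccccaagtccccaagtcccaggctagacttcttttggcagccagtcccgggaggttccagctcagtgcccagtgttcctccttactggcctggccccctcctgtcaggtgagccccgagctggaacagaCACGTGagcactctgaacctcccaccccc
Gja1, chr10:56377050-56377299, plus strand: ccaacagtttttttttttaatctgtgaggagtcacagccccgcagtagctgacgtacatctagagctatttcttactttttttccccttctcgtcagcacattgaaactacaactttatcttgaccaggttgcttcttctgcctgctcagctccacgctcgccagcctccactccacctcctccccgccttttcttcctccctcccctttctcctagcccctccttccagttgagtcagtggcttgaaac
Gjb6, chr14:57133612-57133861, minus strand: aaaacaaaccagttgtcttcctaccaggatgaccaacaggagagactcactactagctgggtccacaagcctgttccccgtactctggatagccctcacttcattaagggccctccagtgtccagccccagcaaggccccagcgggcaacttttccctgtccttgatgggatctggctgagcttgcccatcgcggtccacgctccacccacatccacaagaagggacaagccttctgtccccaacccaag
Fgfrl1, chr5:108693979-108694228, plus strand: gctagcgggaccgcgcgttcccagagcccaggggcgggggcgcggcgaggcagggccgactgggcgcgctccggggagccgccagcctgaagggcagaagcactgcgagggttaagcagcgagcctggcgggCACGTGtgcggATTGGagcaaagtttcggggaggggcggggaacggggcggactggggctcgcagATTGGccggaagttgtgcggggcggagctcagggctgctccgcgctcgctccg

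RefSeq promoters were found for 11 of the 17 called genes. In their 250 bases before the start, 5 motifs were searched on both strands, with overlaps allowed. The E-box CACGTG was present in Aqp6 and Fgfrl1, 2 of 11, against 9.59% of 11270 tested genes with a promoter. The CCAAT box was present in Mat2a, 2900052N01Rik and Fgfrl1, which has it on the minus strand as ATTGG, against 40.5% of all. The TATA box TATAAA was in Mat2a alone (8.04% of all), and neither the cAMP response element TGACGTCA (2.97%) nor the glucocorticoid response element, GNACA and TGTNC with any 3 bases between them (0.382%), was in any of the 11. The windows of Rflnb and Fgfrl1 were rich in GC, at 76.0% and 73.6%, and that of Nnat was at 54.8%. A match describes these letters in this window only, and its place depends on the RefSeq start. The Aqp6 window ends at 99601199, before the gene as GENCODE M21 draws it, from 99601400. The Fgfrl1 start in RefSeq lies inside the GENCODE M21 gene, from 108692382 to 108706924 of chromosome 5.

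Gap junction genes held 1 of the 12 lower calls. Gja1, which encodes connexin 43, the main connexin of astrocytes, was at 2511, 2662 and 2855 CPM (lowest, median and highest of 6) without injury and at 1930, 2095 and 2421 CPM at 3 weeks. Each library at 3 weeks lay below each uninjured library. The log2 difference was -0.33 ± 0.06 (SE of the fit, used throughout), with an edgeR adjusted p of 0.0267. Gjb6, which encodes connexin 30, the partner channel of astrocytes, was at 816, 968 and 1208 CPM without injury and at 666, 737 and 872 CPM at 3 weeks. The groups overlapped through female uninjured replicate 3 alone, the lowest control. At -0.38 ± 0.08 it missed the threshold in the fit of 24 libraries, with an edgeR adjusted p of 0.0563. It was called by DESeq2 (adjusted p 0.00325) and limma (adjusted p 0.00209), and by edgeR with the carry-over index, the level of other cells' markers against astrocyte markers, as a covariate (adjusted p 0.0289). Gja1 and Gjb6 are among the astrocyte markers of that index, so the covariate is not independent of them. Leave-outs aside, Gjb6 was called in 6 of 11 other settings. It was not called with the 12 libraries alone, DESeq2 size factors, upper quartile scaling, a 1 CPM filter or no robust estimation. There the edgeR adjusted p reached 0.0931. Leaving out female 3 weeks replicate 3 or female uninjured replicate 3 gave edgeR adjusted p-values of 0.0487 and 0.0138. Gjb6 was not called without female uninjured replicate 1, nor without male 3 weeks replicate 1, nor without male uninjured replicate 2. The other 8 genes of the gap junction list (connexins, pannexins and Tjp1) had unadjusted p-values over 0.05, among them Gjb2, the connexin 26 gene, at 0.12. The list's summed level was 3663, 3804 and 4088 CPM without injury and 2820, 3032 and 3492 CPM at 3 weeks, without overlap. Most of this sum is Gja1 and Gjb6, so it restates these 2 genes and says little of the other 8. The list's median log2 difference was 0.07, with the other sign than the sum, and 6 of 10 members were positive. The median was -0.03 without female 3 weeks replicate 3, with 6 of 10 members negative and 2, Gja1 and Gjb6, called lower, where 0.3% of all genes were called. With female uninjured replicate 2 left out as well, an alternative added with the data in view, 0 of the 10 were called.

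Genes of the actin cytoskeleton and of focal adhesions held 3 of the 12 lower calls. Rflnb encodes refilin B, a protein that works with filamins in bundling actin. Its level was 28.0, 32.9 and 40.1 CPM without injury and 15.1, 19.8 and 22.4 CPM at 3 weeks, a log2 difference of -0.75 ± 0.09 with an edgeR adjusted p of 0.000577, the smallest of all genes tested. The gene (ENSMUSG00000020846.6) spans 76019194 to 76027782 of chromosome 11, minus strand, GRCm38. The groups did not overlap. Svil encodes supervillin, which links actin and myosin to the membrane, and was at 16.7, 21.7 and 30.4 CPM against 10.2, 12.2 and 15.4 CPM at 3 weeks (-0.82 ± 0.14, edgeR adjusted p 0.0176), again without overlap. Tns3 encodes tensin 3, which joins integrins to actin at adhesions, and lies at 8431652 to 8664535 of chromosome 11. It was at 647, 729 and 1039 CPM without injury and at 484, 557 and 604 CPM at 3 weeks, with a log2 difference of -0.47 ± 0.09 (edgeR adjusted p 0.0193). Its highest uninjured value came from female uninjured replicate 1, the next being 776 CPM.

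Of the 24 genes on the actin and adhesion list, 0 were called higher and 3 lower, where 0.078% of all genes were called lower. For 4 of the 24 the groups did not overlap, all lower, where 0.462% of all genes had 6 libraries below the other 6. Like the other lists, this one was drawn up with earlier results of these data known. Its counts beside the share of all genes are therefore no independent evidence of a change in such genes as a set. The fourth gene without overlap was Tns1, encoding tensin 1, at 144 CPM (median) against 178 CPM without injury (-0.34 ± 0.11, edgeR adjusted p 0.282). The list's median was -0.05 and 15 of 24 members were negative. The median was 0.02 without female 3 weeks replicate 3, with 14 of 24 positive and again 3 called lower, where 0.3% of all genes were called.

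Aqp6, a water and anion channel known from intracellular membranes, lies on chromosome 15 from 99601400 to 99605477. It was at 16.9, 22.3 and 27.5 CPM without injury and at 9.72, 12.5 and 20.6 CPM at 3 weeks, a log2 difference of -0.73 ± 0.11 with an edgeR adjusted p of 0.00389. The groups overlapped because the males lay above the females in both: the 3 males were at 13.4, 17.1 and 20.6 CPM at 3 weeks and at 23.3, 24.9 and 27.5 CPM without injury, the 3 females at 9.72, 10.2 and 11.6 CPM and at 16.9, 20.6 and 21.3 CPM. Within each sex the 3 libraries at 3 weeks lay below the 3 uninjured ones. Aqp4, the main water channel of endfeet, had medians of 2437 CPM and 2438 CPM in the uninjured and 3 week libraries (-0.03 ± 0.08, edgeR adjusted p 0.968). Among 18 potassium and water genes 16 were negative with a median of -0.12, where astrocyte markers had one of -0.09. Of the 18, 1, Aqp6, was called, where 0.078% of all genes were called lower. The potassium channel gene Kcnk2 was at -0.39 ± 0.10 (edgeR adjusted p 0.0950) and the dystrobrevin gene Dtna, part of the endfoot anchoring complex, at -0.20. The sum of this list was lowest in female 3 weeks replicate 3 (30176 CPM, the next 42329 CPM), and without that library the median was -0.05.

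**Figure D2:**
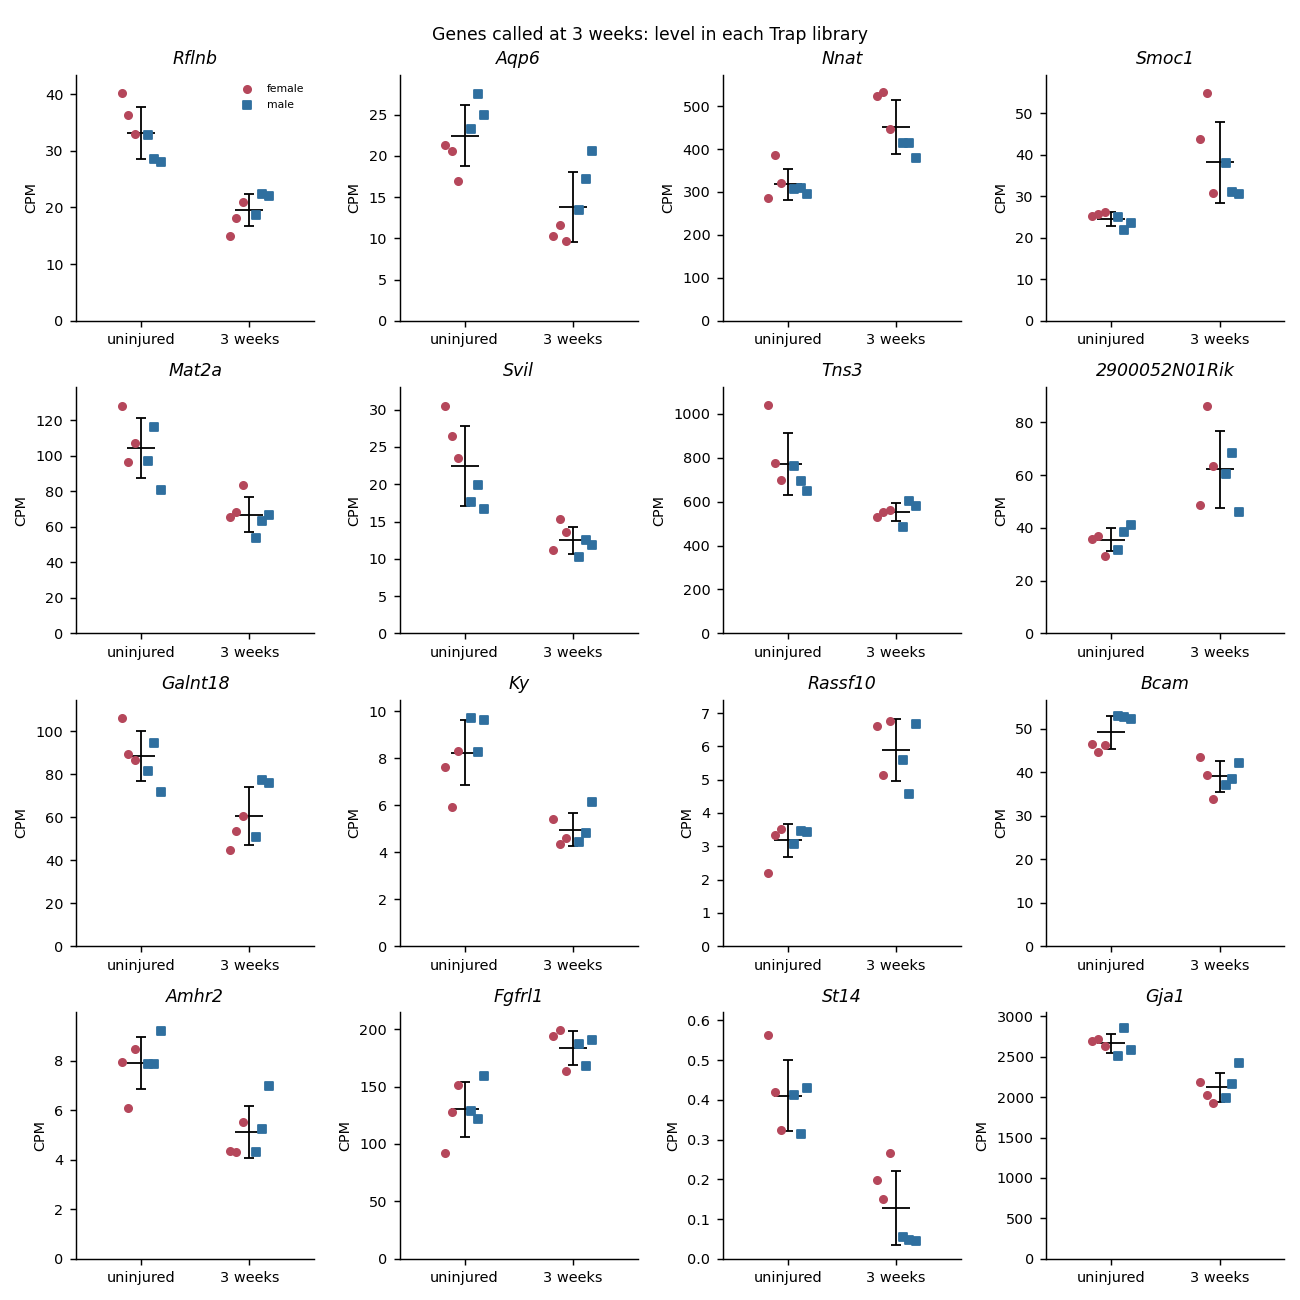
Level in CPM (y axis, from 0) of the 16 called genes that have a symbol in each of the 12 Trap libraries; circles are females, squares males, and the bar and whiskers give the mean ± SD of 6 libraries. Rflnb, Svil, Tns3, Bcam, St14 and Gja1 are lower at 3 weeks in each library than in any uninjured one, and Smoc1, 2900052N01Rik, Rassf10 and Fgfrl1 higher.

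Matrix and growth factor genes moved in both directions. Smoc1 encodes a secreted SPARC-family protein that binds matrix and modulates BMP signalling (ENSMUSG00000021136.13, chromosome 12, 81026808 to 81186414). It was at 21.9, 25.04 and 26.3 CPM without injury and at 30.5, 34.6 and 54.9 CPM at 3 weeks, rising by 0.62 ± 0.10 on the log2 scale (edgeR adjusted p 0.00786) without overlap. The uninjured values lay close together, and the 2 highest values at 3 weeks were from females. Fgfrl1, an FGF-binding receptor without a kinase domain, was at 92.2, 128 and 159 CPM against 164, 189 and 199 CPM at 3 weeks (0.50 ± 0.10, edgeR adjusted p 0.0267), also without overlap. Bcam, an adhesion receptor for laminin, fell by 0.33 ± 0.06 (edgeR adjusted p 0.0261), from 44.7, 49.4 and 53.0 CPM to 33.8, 39.0 and 43.6 CPM. Amhr2, the type 2 receptor of anti-Muellerian hormone, had a median of 7.91 CPM without injury and 4.80 CPM at 3 weeks (-0.62 ± 0.12, edgeR adjusted p 0.0267), with an overlap of 1 male library at 6.99 CPM and 1 female uninjured library at 6.07 CPM.

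The lists around these receptors did not follow them as a whole. Of 17 FGF receptor and feedback genes, 10 were positive with a median of 0.05, and 5 had an unadjusted p under 0.05, each higher, where 4.15% of all genes did. They were Fgfrl1, the kinase receptor Fgfr1 (0.17 ± 0.08), and the feedback inhibitors Spry1 (0.56 ± 0.21, from a median of 1.59 to 2.20 CPM), Spry2 (0.18 ± 0.08) and Il17rd (0.46 ± 0.20). Only Fgfrl1 of the list was called. Without female uninjured replicate 1, the library with the lowest Fgfrl1, 2 of the 17 had such a p. Among 24 genes of BMP, AMH and TGF-beta signalling 15 were positive (median 0.05), with the ligand Bmp7 at 0.46 ± 0.14 and an edgeR adjusted p of 0.200. Of 19 matricellular and matrix genes 14 were negative (median -0.06). Bcan, which encodes the proteoglycan brevican, was at 1807, 2021 and 2127 CPM without injury and at 1255, 1679 and 1763 CPM at 3 weeks, without overlap (-0.29 ± 0.07, edgeR adjusted p 0.110). Sparcl1, an abundant secreted astrocyte protein of the SPARC family like Smoc1, was at -0.21 ± 0.08 (edgeR adjusted p 0.374). Of the 14 basement membrane genes Bcam was the one with an unadjusted p under 0.05.

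Among the enzymes, Mat2a makes S-adenosylmethionine, the methyl donor of the cell. It was at 80.6, 102 and 128 CPM without injury and at 53.6, 66.1 and 83.9 CPM at 3 weeks (-0.64 ± 0.11, edgeR adjusted p 0.00786). The single overlap was between female 3 weeks replicate 3 and male uninjured replicate 3. Of the 26 methionine and one-carbon genes 16 were negative (median -0.06, and -0.02 without female 3 weeks replicate 3). Mat2a was the 1 called, where 0.078% of all genes were called lower. Mthfd2, a mitochondrial folate enzyme, was at 30.7, 51.4 and 101 CPM against 17.5, 28.3 and 51.2 CPM (-0.87 ± 0.28, edgeR adjusted p 0.294), a spread too wide for a call. Galnt18, a GalNAc transferase of mucin-type glycosylation, was at 72.0, 88.1 and 106 CPM against 44.6, 57.1 and 77.6 CPM (-0.55 ± 0.10, edgeR adjusted p 0.0236). Its 3 females at 3 weeks lay between 44.6 and 60.7 CPM and the males between 50.9 and 77.6 CPM. Of the other 13 genes of that family tested, Galnt1 had an unadjusted p under 0.05 (-0.19).

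St14, the gene of the membrane protease matriptase, rests on few reads. Its 6 uninjured libraries held 7 to 12 reads each and 50 in all, and the 6 libraries at 3 weeks held 1 to 6 and 16 in all. Relative to the total reads this is 3.07-fold lower, with an exact 95% binomial interval of 1.72 to 5.77 that covers counting error only. The edgeR adjusted p was 0.0267, and the gene was lower in Trap than in Input (log2 -1.30), the single called gene with that sign.

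Nnat encodes neuronatin, a small membrane proteolipid of the endoplasmic reticulum, and is imprinted. It was at 286, 309 and 387 CPM without injury and at 380, 431 and 534 CPM at 3 weeks, rising by 0.50 ± 0.08 on the log2 scale (edgeR adjusted p 0.00510). The overlap came from female uninjured replicate 2 at 387 CPM, the other controls reaching 321 CPM. Nnat (chromosome 2, 157560078 to 157562522, plus strand) lies inside Blcap, a gene on the minus strand, and no source used here says whether counting used the strand. Blcap was at 0.17 ± 0.08 (edgeR adjusted p 0.534), from 47.3 to 52.7 CPM in the median. Of 25 imprinted genes 16 were positive (median 0.07), and Nnat was the one called. In the fit without female 3 weeks replicate 3, 12 of the 25 were positive, with a median of -0.000767.

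Rassf10, of the RASSF family of scaffold proteins, rose by 0.89 ± 0.17 on the log2 scale (edgeR adjusted p 0.0239) at a low level, from 2.21, 3.39 and 3.53 CPM to 4.56, 6.11 and 6.75 CPM. The noncoding RNA 2900052N01Rik (chromosome 9, 46913493 to 46927366) was at 29.2, 36.3 and 41.1 CPM against 46.2, 61.9 and 86.1 CPM (0.81 ± 0.14, edgeR adjusted p 0.0201). Both rose in all 6 libraries beyond the highest control. Ky, a muscle-related cytoskeletal gene, fell by 0.72 ± 0.13 (edgeR adjusted p 0.0236), from a median of 8.29 to 4.71 CPM with an overlap.

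The 12 genes next in order of p had adjusted p-values of 0.0506 to 0.0651 and are given as values, not as calls of this fit. Tmem176a, a membrane protein gene, was at 88.9, 94.2 and 107 CPM against 115, 124 and 151 CPM (0.42 ± 0.09), without overlap, and Tmem176b, which overlaps it on the other strand, was at 0.26. Dkk3, a secreted Wnt modulator, was at 0.42 ± 0.09. Dio2, which makes active thyroid hormone and is an astrocyte enzyme of the nervous system, was at 128, 163 and 211 CPM without injury and at 97.7, 115 and 129 CPM at 3 weeks (-0.54 ± 0.11). Only the highest library at 3 weeks reached the lowest control. Dio2 was called without female 3 weeks replicate 3 (-0.58 ± 0.12, edgeR adjusted p 0.0418), and DESeq2 on the 24 libraries called it as well (adjusted p 0.00248). Leave-outs aside, it was called in 5 of 11 other settings. Bbox1, the last enzyme of carnitine synthesis, was at -0.37 ± 0.08, the microtubule gene Ckap5 at -0.29 ± 0.06 and the syndecan gene Sdc2 at -0.28 ± 0.06, the latter 2 without overlap. St3gal4 (-0.40), Fibin (-0.52) and Arhgef37 (-0.66) were lower as well in value. The groups of 6 of these 12 genes did not overlap, where 0.832% of all genes had such groups. The 12 were picked by p from the same libraries, so a high count follows from the choice and adds no support.

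Glucocorticoids are adrenal stress hormones that act through a nuclear receptor abundant in astrocytes, and a set of target genes follows hormone levels. Of 26 such targets 23 were negative with a median of -0.29, and 12 had an unadjusted p under 0.05, each lower, where 4.49% of all genes did. Among the 26, 0 were called by edgeR. The list shares Gjb6 with the gap junction list and Glul with the glutamate list, so these genes count in both. Tsc22d3, whose product GILZ is a classical target, was at 397, 411 and 816 CPM without injury and at 268, 299.6 and 329 CPM at 3 weeks, the 1 member without overlap (-0.72 ± 0.15, edgeR adjusted p 0.0651). Cdkn1a, the cell cycle inhibitor p21, was at 157, 180 and 280 CPM against 63.8, 109 and 173 CPM (-0.88 ± 0.21). Klf9 was at -0.35 ± 0.09 and the phagocytic receptor Mertk at -0.66 ± 0.16, both with an edgeR adjusted p of 0.111. Hr, a nuclear corepressor outside that list, was at 257, 314 and 637 CPM against 138, 183 and 260 CPM (-0.90 ± 0.18, edgeR adjusted p 0.0651).

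One control library weighed on these genes. Female uninjured replicate 1 was the highest of the controls for the summed targets (19023 CPM, the next 14350 CPM), for Tsc22d3 (816 CPM, the next 516 CPM) and for Hr (637 CPM, the next 324 CPM). Without it the median of the 26 targets was -0.14, 21 were negative and 7 had an unadjusted p under 0.05, all lower. The labels give no time of day or handling of the animals, whose part in these values was not tested. The glucocorticoid response element was in the 250 bases of 2 of the 23 targets with a promoter, against 0.382% of all. Both are shown because they are the members of the list that carry it, and they were picked for that after their values were seen.
Sgk1, chr10:21993682-21993734, plus strand: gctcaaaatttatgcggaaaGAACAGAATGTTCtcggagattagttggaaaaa
Mt1, chr8:94178975-94179027, plus strand: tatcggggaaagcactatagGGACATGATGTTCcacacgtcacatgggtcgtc
The capitals mark the match, which begins 188 bases before the start of Sgk1 and 94 before that of Mt1. Neither gene had a small p at 3 weeks: the kinase gene Sgk1 had means of 5.01 and 3.84 CPM (-0.35 ± 0.30, edgeR adjusted p 0.835) and the metallothionein Mt1 of 1544 and 1488 CPM (-0.05 ± 0.14, edgeR adjusted p 0.967).

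**Figure D3:**
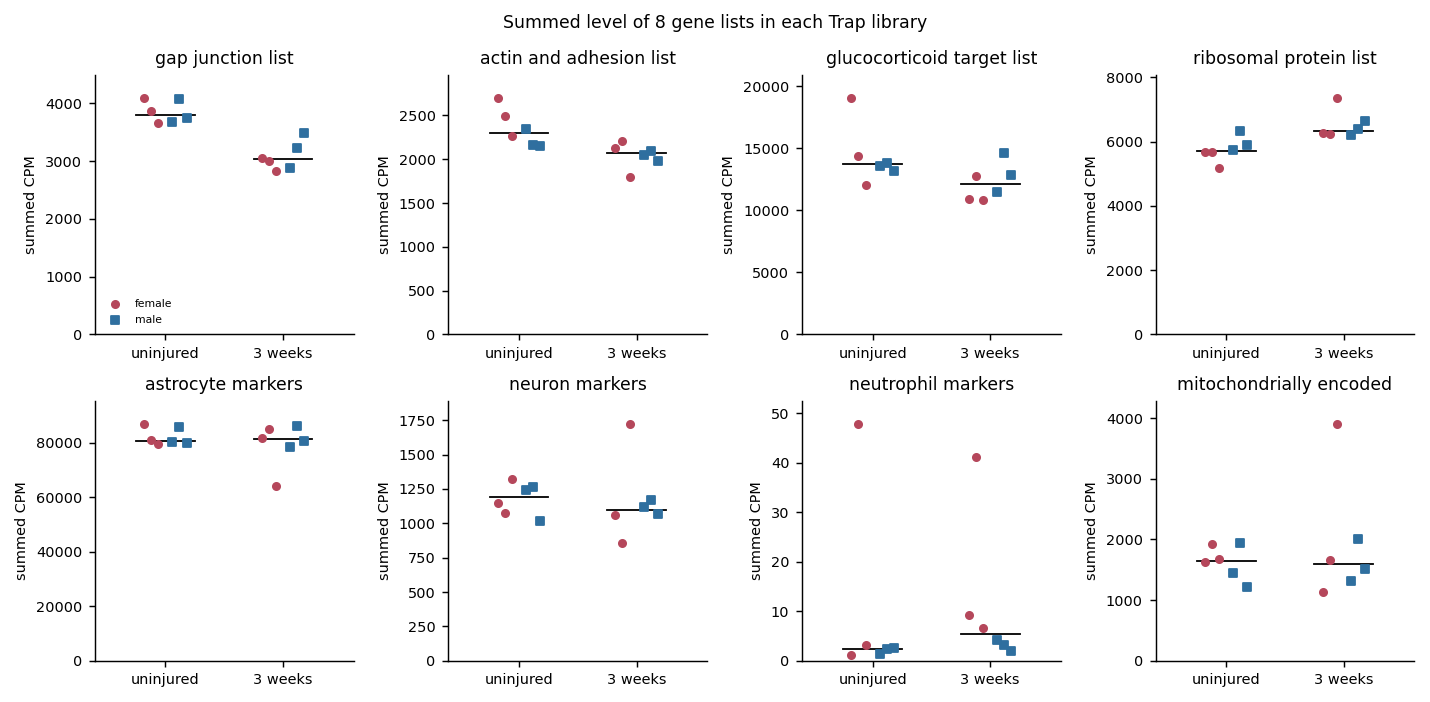
Summed level in CPM (y axis, from 0) of 8 gene lists in each of the 12 Trap libraries; circles are females, squares males, the bar is the median of 6 libraries. The gap junction sum, mostly Gja1 and Gjb6, does not overlap between the groups. The glucocorticoid sum is highest in 1 uninjured female library (19023 CPM), and female 3 weeks replicate 3 has the lowest astrocyte (64167 CPM) and the highest neuron and mitochondrially encoded sums.

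The 57 cytosolic ribosomal protein genes all had positive values with a median of 0.20. Of the 57, 9 had an unadjusted p under 0.05, all higher, where 4.15% of all genes did, and 0 were called by edgeR. For 7 of the 57 each library at 3 weeks lay above each control, where 0.371% of all genes did, among them Rpl3 at 219, 241 and 257 CPM against 261, 274 and 293 CPM (0.21 ± 0.08, edgeR adjusted p 0.412) and Rps19 at 23.8, 27.0 and 27.8 CPM against 29.9, 31.6 and 39.7 CPM (0.30 ± 0.13, edgeR adjusted p 0.488). Summed, these genes were at 5175, 5708 and 6339 CPM without injury and at 6204, 6330 and 7351 CPM at 3 weeks. The highest sum was that of female 3 weeks replicate 3, and without that library all 57 values were still positive, with a median of 0.14, and 2 had an unadjusted p under 0.05. Against the same controls the median of the 57 was 0.04 at 5 weeks and 0.17 at 7 weeks, so it was not particular to 3 weeks. Rpl22, the gene of the tagged subunit, is among the 57 and was at 0.21. Whether tagged and untagged transcripts were counted together is not given in the sources used here.

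Of the lists of astrocyte reactivity and cytokine signalling, edgeR on the 24 libraries called 0 genes. Gfap, the intermediate filament of reactive astrocytes, was at 8813, 10884 and 11941 CPM without injury and at 10923, 12068 and 15491 CPM at 3 weeks (0.22 ± 0.08, edgeR adjusted p 0.347); limma called it (adjusted p 0.0203). Stat3, a transcription factor of the gp130 cytokine pathway, was at 121, 129 and 151 CPM against 127, 165 and 229.9 CPM (0.37 ± 0.10, edgeR adjusted p 0.152). Stat3 was called by limma (adjusted p 0.00135), by DESeq2 (adjusted p 0.0461) and by edgeR with the carry-over index as covariate (adjusted p 0.0423). Tnfrsf1a, a TNF receptor gene, was called by these 3 fits as well, at 0.0289 with the covariate. The receptor Osmr (0.47 ± 0.19) and the feedback inhibitor Socs3 (0.60 ± 0.28) of the same pathway also had an unadjusted p under 0.05, 3 of the 12 genes of that list, where 4.15% of all genes had one and were higher. Of 19 interferon and MHC class I genes 12 were positive (median 0.12) and 4 had such a p (8.64% of all genes in either direction), all higher, such as H2-D1 (0.24 ± 0.08) and the immunoproteasome gene Psmb9 (0.55 ± 0.25). Of these 19, 17 were positive without female 3 weeks replicate 3 (median 0.19), and without male 3 weeks replicate 3 the median was 0.02. Of 13 complement genes 0 had an unadjusted p under 0.05. The 13 pan-reactive genes had a median of 0.09, which ran from 0.00485 without female 3 weeks replicate 1 to 0.25 without female uninjured replicate 2. Female uninjured replicate 2 had the highest neutrophil markers of the controls (47.7 CPM, the others 1.18 to 3.20 CPM). Without female 3 weeks replicate 3, Stat3 (0.48 ± 0.08, edgeR adjusted p 0.00523) and Tnfrsf1a (0.38 ± 0.07, edgeR adjusted p 0.0154) were called higher. With female uninjured replicate 2 left out as well, an alternative added with the data in view, Serpina3n was called too (0.48 ± 0.09, edgeR adjusted p 0.0168), against 0.20 ± 0.14 in the 24-library fit. In that fit 12 of the 13 pan-reactive genes were positive (median 0.35), 6 of them at an unadjusted p under 0.05. Of all 15635 genes tested there, 1236 had such a p in either direction. Leaving out female uninjured replicate 2 alone already gave this list its highest median, so the rise is tied to the choice of fit. Of the 19 interferon and MHC genes 18 were positive (median 0.30), 8 at such a p, and H2-D1 was called, where 0.275% of all genes were (0.36 ± 0.07, edgeR adjusted p 0.0281).

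Metabolic genes, the subject of the series, were mostly slightly lower in value, and edgeR on the 24 libraries called none at 3 weeks in the lists of glycolysis, glycogen, the tricarboxylic acid cycle, fatty acid oxidation, lipid synthesis or cholesterol. Astrocyte markers were lower by a similar size, so the direction is not particular to metabolic genes. Of these 24 markers 18 were negative (median -0.09, and -0.02 without female 3 weeks replicate 3). The glycolysis and lactate list had 19 of 24 values negative (median -0.10, and -0.05 without female uninjured replicate 1) with 3 genes lower and 1 higher at an unadjusted p under 0.05. Of all genes, 4.49% were lower and 4.15% higher at that p. Pfkp, the platelet-type phosphofructokinase, was at 606, 753 and 883 CPM against 493, 548 and 686 CPM (-0.41 ± 0.10, edgeR adjusted p 0.111), and the glucose carrier Slc2a1 was at -0.28 ± 0.10. Pfkp was called by DESeq2 (adjusted p 0.0239), by limma (adjusted p 0.0276), and by edgeR with the carry-over index as covariate (adjusted p 0.0395) or without female uninjured replicate 3 (adjusted p 0.0493). Without female uninjured replicate 1 or without female 3 weeks replicate 3 it was not called. Slc16a7, a monocarboxylate carrier, went the other way in value (0.75 ± 0.23), from a median of 0.710 to 1.34 CPM. Of 21 glycogen genes 17 were negative (median -0.10). Phkb, a subunit of phosphorylase kinase, was at 215, 221 and 243 CPM against 165, 196 and 204 CPM, without overlap (-0.24 ± 0.08, edgeR adjusted p 0.322), and Ppp1r3g, a glycogen-targeting phosphatase subunit, was at -0.42 ± 0.13.

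In the tricarboxylic acid cycle and pyruvate list 27 of 36 values were negative (median -0.07), and in fatty acid oxidation 24 of 30 (median -0.05). Acsl3, which activates long fatty acids, was at 1455, 1638 and 1831 CPM against 1110, 1308 and 1589 CPM (-0.32 ± 0.08, edgeR adjusted p 0.0950). It was called by DESeq2 (adjusted p 0.0195), by limma (adjusted p 0.0145), and by edgeR without a filter on low counts (adjusted p 0.0473) or with the carry-over index as covariate (adjusted p 0.0268). Without female uninjured replicate 1 or without female 3 weeks replicate 3 Acsl3 was not called. Nuclear genes of oxidative phosphorylation had a median of -0.02, with 37 of 59 negative, and without female 3 weeks replicate 3 one of -0.06, with 51 negative. Cholesterol genes had a median of 0.00 over 26. The fatty acid oxidation sum was lowest in female 3 weeks replicate 3 (7885 CPM, the next 9328 CPM).

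Glutamate and GABA handling, another core astrocyte task, had 14 of 17 genes negative (median -0.10, with astrocyte markers at -0.09). Of the 17, 4 were lower at an unadjusted p under 0.05, where 4.49% of all genes were: Maob (-0.19), Abat (-0.21), Glul (-0.21) and Gabbr1 (-0.15). Without female 3 weeks replicate 3 the median was -0.07 and 0 were lower at that p, while 1 was higher. The glutamate carriers Slc1a2 (-0.10 ± 0.13) and Slc1a3 (-0.13 ± 0.10) had errors near the size of their values. The unfolded protein response list, chaperones and foldases of the endoplasmic reticulum, had 16 of 19 negative (median -0.12, and -0.05 without female uninjured replicate 1). Of the 19, 5 were lower at an unadjusted p under 0.05, where 4.49% of all genes were. Hspa5, the chaperone BiP, was at 407, 428 and 499 CPM against 312, 359 and 415 CPM (-0.27 ± 0.08, edgeR adjusted p 0.202). Of 22 synaptogenic factors 15 were negative (median -0.07); Gpc4, a glypican that recruits glutamate receptors, was at 21.2, 22.5 and 24.4 CPM against 13.7, 19.1 and 20.96 CPM, without overlap (-0.30 ± 0.12, edgeR adjusted p 0.419). The adrenergic receptor gene Adra1a, through which noradrenaline raises astrocyte calcium, was at 22.9, 24.9 and 27.4 CPM against 17.1, 19.2 and 21.4 CPM, likewise without overlap (-0.37 ± 0.09, edgeR adjusted p 0.111).

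**Figure D4:**
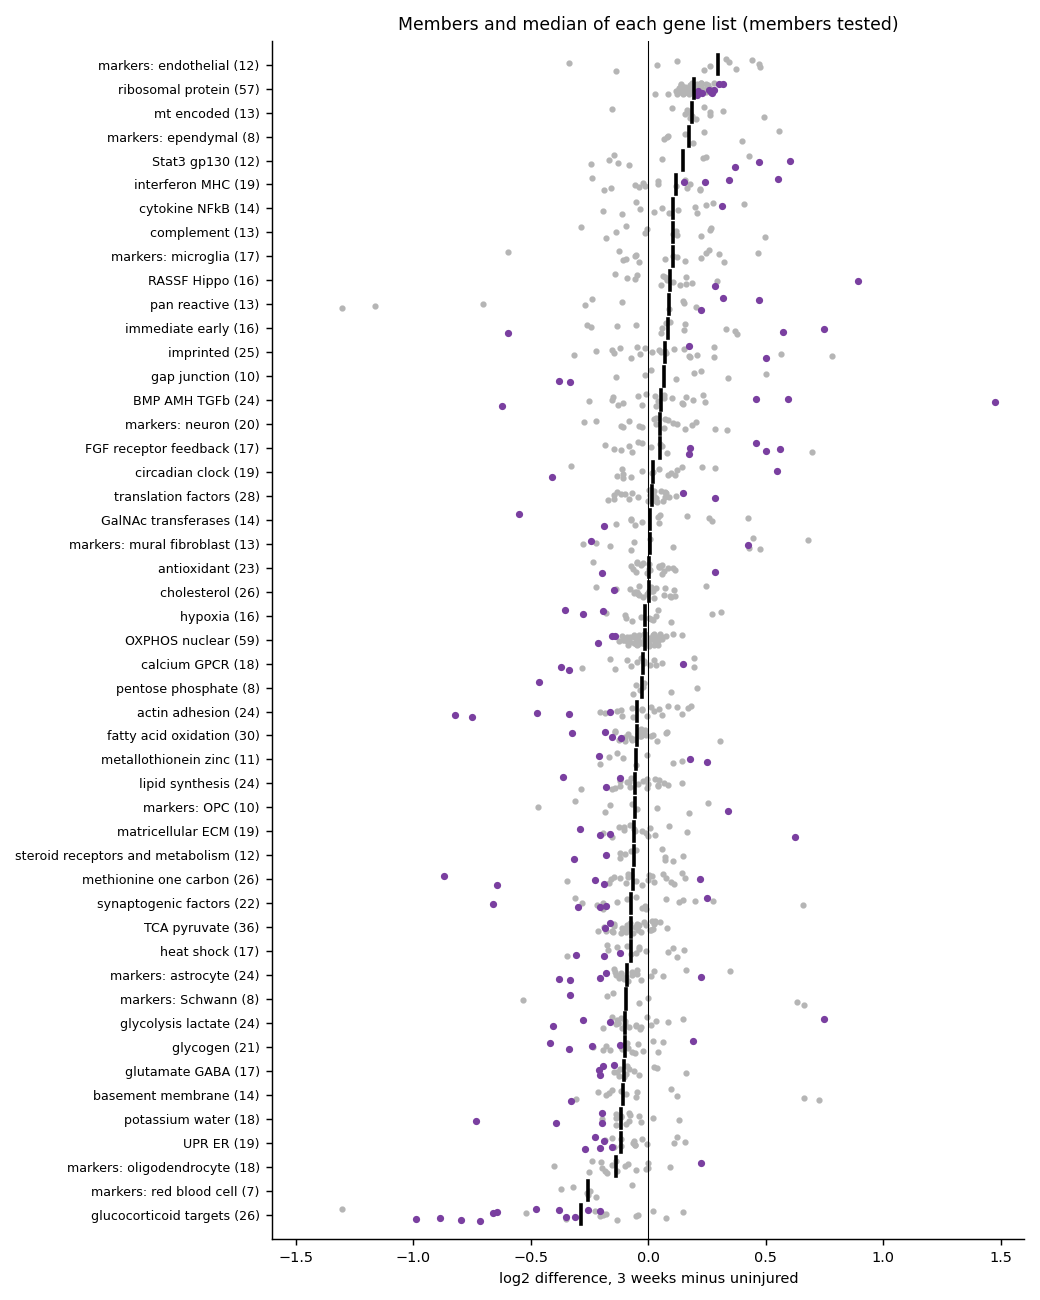
Log2 difference between 3 weeks and uninjured (x axis) of each tested member of 49 gene lists, with the number tested in brackets; purple points have an unadjusted p under 0.05 and the black bar is the median. Glucocorticoid targets have the lowest median (-0.29), ribosomal protein genes lie above 0 in a narrow band, and most other medians are within 0.2 of 0; neutrophil markers, at 1.70, are left out of the plot.

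Markers of other cells were compared in the same 12 libraries. Endothelial markers had a median of 0.30 (10 of 12 positive) and mitochondrially encoded genes one of 0.19 (12 of 13 positive). Without female 3 weeks replicate 3 these medians were -0.03 and -0.12. Neuron markers were at 0.05, and -0.25 without it, and microglia markers at 0.11, and -0.18 without it. Oligodendrocyte markers were negative in 16 of 18 (-0.14, and -0.24 without it), and red blood cell markers in 7 of 7 (-0.26). Ependymal markers were positive in 8 of 8 (0.17), with 42.2 to 55.2 CPM summed without injury and 52.3 to 62.5 CPM at 3 weeks. Neutrophil markers had a median of 1.70 (6 of 7 positive). Of the 7, 5 were higher at an unadjusted p under 0.05, where 4.15% of all genes were. The summed levels of this list were 1.18 to 47.7 CPM without injury and 1.90 to 41.1 CPM at 3 weeks. S100a9, Retnlg and Anxa1 were at 0 in at least 1 control. None of these marker genes was called by edgeR. The carry-over index sets the neuron, oligodendrocyte, microglia and endothelial markers against the astrocyte markers. With it as covariate 48 genes were called (0.312%), all 17 among them. Beyond that fit, the part of these markers in the values of other genes was not tested.

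Enrichment in the pull-down was set beside the direction at 3 weeks. Of the 17 called genes 16 were called higher in Trap than in Input, where 44.4% of all genes were, and 1, St14, lower, where 43.7% were. Of 3465 genes over 2-fold higher in Trap than in Input, 5 were called higher and 9 lower, where 0.0325% and 0.078% of all genes were. At an unadjusted p under 0.05, 4.76% of this class were higher and 9.09% lower, where 4.15% and 4.49% of all genes were. Of 3446 genes over 2-fold lower in Trap, the shares were 4.44% and 2.15%. Without female 3 weeks replicate 3 they were 6.38% and 6.29% in the first class, and 2.96% and 4.24% in the second. With the carry-over index as covariate they were 5.31% and 9.78% in the first class, and 3.80% and 3.16% in the second. In the first class 10 were then called higher and 24 lower, where 0.312% of all genes were called. All 17 calls remained without female 3 weeks replicate 3, among 47 (0.3% of the genes tested there).

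The effect of fracture did not differ detectably between the sexes. edgeR called 0 of 15380 genes for the difference of the 3 week effects, with 398 at an unadjusted p under 0.05 (2.59%), and DESeq2 called 1. Among the 17 called genes 3 had an unadjusted p under 0.05 for it. Rflnb was at -1.01 in females and -0.49 in males (unadjusted p 0.0114), Galnt18 at -0.83 and -0.28, and St14, with its few reads, at -1.05 and -2.82. In females Rflnb was at 33.03 to 40.1 CPM without injury and 15.1 to 20.9 CPM at 3 weeks, in males at 28.0 to 32.8 and 18.7 to 22.4 CPM. The controls of the females were thus the higher ones, and the 3 week values of both sexes overlapped. In value the effect was larger in females for 12 of the 17 called genes and 12 of the 12 next, against 9106 of all 15380. Medians in females and males were -0.45 and -0.14 for glucocorticoid targets and 3.17 and 0.24 for neutrophil markers. They were 0.28 and 0.10 for ribosomal protein genes. Oligodendrocyte (-0.06 and -0.23) and endothelial markers (0.22 and 0.33) had the larger median in males. None of these splits was tested.

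The libraries at 5 and 7 weeks share the uninjured controls with those at 3 weeks, so the levels are given side by side. Rflnb had means of 33.1 ± 4.63 CPM without injury, 19.6 ± 2.81 at 3 weeks, 24.9 ± 1.67 at 5 weeks and 28.9 ± 4.29 at 7 weeks (SD, n = 6 each). Nnat was at 431 CPM in the median at 3 weeks, and its means were 317 ± 31.2 CPM at 5 weeks and 325 ± 27.6 CPM at 7 weeks. Fgfrl1 had a mean of 136 CPM at both later times, with SDs of 14.2 and 12.9, and Gja1 means of 2448 ± 216 and 2603 ± 85.4 CPM. Aqp6 was at 18.2 ± 2.47 and 20.1 ± 3.84 CPM, Tns3 at 685 ± 53.2 and 713 ± 91.9 CPM, and Mat2a at 80.5 ± 7.96 and 87.7 ± 11.98 CPM. edgeR called 0 genes at either later time.

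**Figure D5:**
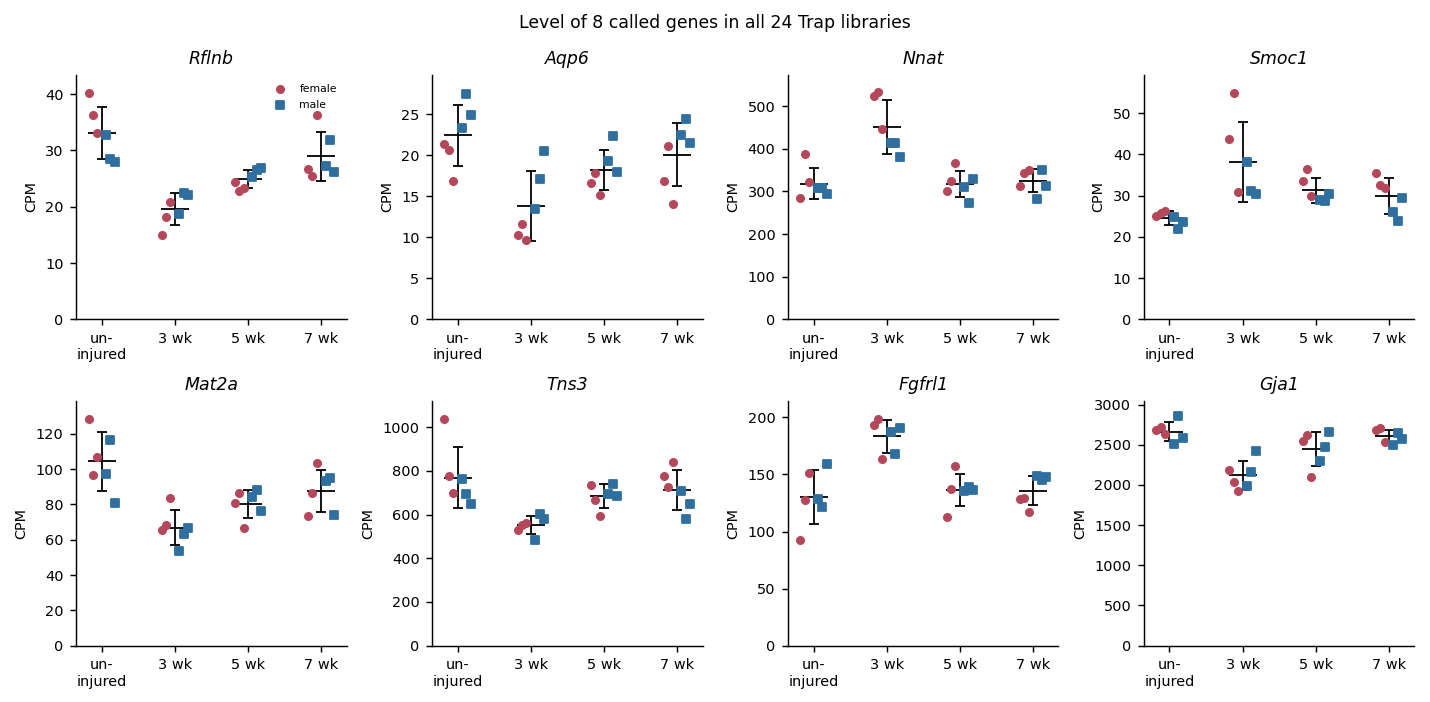
Level in CPM (y axis, from 0) of 8 called genes in all 24 Trap libraries by state; circles are females, squares males, bar and whiskers the mean ± SD of 6 libraries. Rflnb is lowest and Nnat highest at 3 weeks, and the 5 and 7 week libraries of Nnat lie near the uninjured ones; the genes were chosen by their call at 3 weeks.

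Whole tissue was measured in 2 Input libraries at 3 weeks and 2 without injury, in a fit of 8. The column names set each Input beside the Trap library of replicate 1 of its sex and state, so both may come from the same material, female uninjured replicate 1 included, and a shared sign is not shown to be independent. Of 16803 genes 182 were called there (1.08%), 73 higher (0.434%) and 109 lower (0.649%). Of the 17 genes called in Trap, 7 were called there with the sign they had in Trap. Gja1, Tns3, Mat2a and its twin fell, and 2900052N01Rik, Fgfrl1 and Nnat rose. Of the 12 genes next in order 6 were called in whole tissue, again with the sign seen in Trap: Gjb6 (-0.59, edgeR adjusted p 0.000681), Dio2 (-0.92, 0.000477), Tsc22d3 (-0.49, 0.00489), Bbox1 (-0.57, 0.0140), Ckap5 (-0.35, 0.0159) and Fibin (-0.54, 0.0455). Dio2 went from 37.1 and 19.8 CPM in the female and male control to 17.95 and 11.9 CPM, and Gjb6 from 164 and 138 CPM to 97.7 and 102 CPM. For both genes, the 3 week Input library of each sex was below its control. Klf9 was also called there (-0.54, edgeR adjusted p 0.0218). Rflnb (-0.38), Aqp6 (-0.38), Smoc1 (0.22) and Svil (-0.13) had the sign of Trap without a call, and Ky, Rassf10 and St14 had the other sign. Without the female uninjured Input library 34 genes were called. Among the largest whole-tissue increases were those of the nerve injury genes Sprr1a (4.43) and Atf3 (2.29) and of the peptide genes Gal (1.86) and Pdyn (1.45), and none of Atf3, Gal and Pdyn was called in Trap.

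The firmness of the 17 calls varied. Rflnb, Aqp6 and Nnat were called in all 12 fits that left out 1 library, with edgeR adjusted p-values of at most 0.00607 for Rflnb and 0.0259 for the other 2. They were the calls left without male uninjured replicate 2, and with Smoc1 the ones left without female uninjured replicate 1 or without male 3 weeks replicate 1. Smoc1 reached 0.0504 without male uninjured replicate 2. Mat2a was lost in these 3 fits, Svil in these and without female 3 weeks replicate 1. Without male uninjured replicate 1 or without female 3 weeks replicate 2, Tns3, 2900052N01Rik, Galnt18, Ky, Bcam, Amhr2, Fgfrl1, St14 and Gja1 were not called. Rassf10 was lost too without male uninjured replicate 1. Without female 3 weeks replicate 1 Tns3, Galnt18, Rassf10, Amhr2, Fgfrl1 and St14 were lost. Without male 3 weeks replicate 2 Ky, Bcam, Amhr2, St14, Gja1 and 2900052N01Rik were lost, and without male uninjured replicate 3 the first 5 of these and Rassf10. Male 3 weeks replicate 3 decided Rassf10, Fgfrl1 and St14, female uninjured replicate 3 Ky and Amhr2, and female uninjured replicate 2 Gja1. For Gja1 the edgeR adjusted p rose to 0.165 at most, with log2 differences of -0.37 to -0.29. In each of these fits all 17 genes kept the sign of their difference. With other tools more genes were called: DESeq2 called 135 (0.878%), 16 of the 17 among them, and limma voom with quality weights 334 (2.17%), including all 17. With the carry-over index as covariate edgeR called 48 (0.312%), again with all 17, of which Gja1 is itself part of the index.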

How the data were processed

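Ribosome-bound RNA (Trap) and whole-tissue RNA (Input) of mouse lumbar spinal cord were sequenced as poly-A selected libraries, per the labels' protocols. The authors deposited 1 table of expected counts (estimated reads per gene, not normalized, unit estimated counts) for 32 libraries. Per the submitters' processing notes, FastQC, Trim Galore, STAR and RSEM were used with GRCm38. Versions, annotation and strandedness are not given in the sources used here. Ambiguous reads are split between genes by RSEM, so near-identical genes such as Mat2a and its twin are uncertain.

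Counts were rounded to whole numbers. edgeR 4.0.16 in R 4.3.3 (filterByExpr, TMM, robust quasi-likelihood fit) was run on the 24 Trap libraries with a mean per sex and state; the contrast is 3 weeks minus uninjured averaged over the sexes, with Benjamini-Hochberg adjustment over 15380 genes and 16 residual degrees of freedom. CPM values are scaled by TMM. DESeq2 1.42.0 and limma 3.58.1 gave alternatives, with other scalings, filters, blocks and left-out libraries. The procedure was tested on simulated counts.

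Total counts of the 12 libraries were 17124034 to 23189228, which limits genes under about 1 CPM. No library pair held identical values. Named genes are all called genes with a symbol, the 12 next by p with a mean of at least 1 CPM, up to 4 members per list by p, a fixed panel, and genes followed from other comparisons. Fgfr1, Sgk1, Mt1 and Tmem176b fall outside this rule; they were added with their values known. Members and lists were chosen with earlier results of these data known. Sequences are from RefSeq.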

Additional observations from a re-analysis of the deposited data

Results flagged for a closer look

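In groups of 6 libraries, a highest or lowest value was marked where its gap to the nearest other library was above Dixon's 95% critical value. This held for 25 of 158 groups, and chance marks about 1 in 20. No explanation was tested.

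Female 3 weeks replicate 3 accounted for most of the marked sums. It was lowest for astrocyte markers at 64167 CPM (the nearest other 3 week library 78569), potassium and water genes at 30176 CPM (42329), glutamate and GABA genes at 24622 CPM (32433), fatty acid oxidation at 7885 CPM (9328), lipid synthesis at 14205.5 CPM (17024), pentose phosphate genes at 702 CPM (802) and calcium and receptor signalling genes at 4890.4 CPM (5896). It was highest for neuron markers at 1718 CPM (1171), microglia markers at 81.6 CPM (66.6), mitochondrially encoded genes at 3896 CPM (2007) and ribosomal protein genes at 7351 CPM (6633).

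Female uninjured replicate 1 was the highest control for Tns3 at 1039 CPM (776), Tsc22d3 at 816 CPM (516), Hr at 637 CPM (324), Bbox1 at 216 CPM (176), the glucocorticoid targets at 19023 CPM (14350), glutamate and GABA genes at 39604 CPM (35674) and heat shock genes at 4714 CPM (4358). It was the lowest control for Rassf10 at 2.21 CPM (3.06).

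Female uninjured replicate 2 was the highest control for Nnat at 387 CPM (321), for microglia markers at 79.3 CPM (64.7) and for neutrophil markers at 47.7 CPM (3.20). Female 3 weeks replicate 2 was the highest 3 week library for neutrophil markers at 41.1 CPM (9.34) and the lowest for immediate early genes at 198 CPM (230). Female uninjured replicate 3 was the highest control for markers of oligodendrocyte precursors at 712 CPM (597).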

How the results depend on the processing

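The number of genes called at 3 weeks, 17 with edgeR on 24 libraries, changed with the setting, and the cause was not tested. It was 28 with only the 12 libraries compared (10 of the 17 among them), 34 without a filter on low counts (15), 135 with DESeq2 (16), 334 with limma voom and quality weights (17), 48 with the carry-over index as covariate (17) and 43 without female 3 weeks replicate 3 and female uninjured replicate 2 (15). With DESeq2 size factors, upper quartile scaling, a filter of 1 CPM in 6 libraries or no robust estimation it was 18 to 19. Leaving out 1 library gave 3 (without male uninjured replicate 2) to 47 (without female 3 weeks replicate 3). With the replicate number as a block 44 genes were called, and 80 with a block within sex; both called Gjb6, Dio2, Bbox1, Bcan, Acsl3, Pfkp (edgeR adjusted p 0.0130 and 0.00317) and the glycogen phosphorylase gene Pygm (0.0496 and 0.00848), and the latter also Tnfrsf1a, Slc2a1 and Adra1a. The numbers are not given as pairs in the labels, same-numbered deviations correlated at -0.04 to 0.15, and 4 of 6 numbers correlated best with their own. For the sex difference, called in 0 genes, DESeq2 called 1 (Gm5537), and each left-out library gave 0. In whole tissue 182 genes were called, 34 to 201 with 1 Input library left out (34 without the female uninjured one, 86 without male 3 weeks). No named gene that was called reversed its direction. Counted per gene and fit, so that a gene can count more than once, calls were lost in 11 cases under other settings and in 84 with a library left out. Depth limits St14, at 1 to 12 reads per library.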

Other observations

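Genes outside the 17 called ones were called under single alternatives and are given as values. Gabbr2, a subunit of the GABA-B receptor, was at 0.46 ± 0.08 on the log2 scale without female 3 weeks replicate 3 (edgeR adjusted p 0.00864) and at 0.38 ± 0.09 with DESeq2 on the 24 libraries (DESeq2 adjusted p 0.00979). Gpx3, a secreted glutathione peroxidase, was at 0.86 ± 0.19 with DESeq2 (DESeq2 adjusted p 0.00248) and at 0.88 ± 0.18 with the carry-over index as covariate (edgeR adjusted p 0.0395).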
